A study of Mus musculus with 3 samples.

Results

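The STAT transcription factors are signal transducers that carry the message of cytokine receptors to the nucleus. The 6 family members described here, Stat2, Stat3, Stat4, Stat5a, Stat5b and Stat6, were taken by gene name from a deposited table of 17857 genes, and each had 1 row. All 6 passed the filter on low counts (a sum of at least 10 over the libraries), as 15490 genes did in all. The RNA came from 1 sorted population, labelled ckit_pos, in 3 libraries called replicates 1, 2 and 3. Donors were C57BL/6J mice that carried B16F10 tumours, a melanoma line of the same strain, in both thighs for 14 days and received no treatment. Tumour-draining lymph nodes were pooled, and the sort took the cells with Ly6C and c-kit on the surface and without CD11c. The sources used here do not give the number of mice in a pool, and no mouse without a tumour and no second population was measured. The labels do not say whether the replicates were separate pools of animals, so every p-value covers the spread of these 3 libraries alone, and that spread may be technical.

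A cytokine brings the chains of its receptor together, the Janus kinases bound to those chains phosphorylate them, and a STAT docks, is phosphorylated in turn, pairs through its SH2 domain and enters the nucleus. Each family member is known for its own inputs: type I interferon for STAT2, the IL-6 and IL-10 families for STAT3, IL-12 for STAT4, IL-2, IL-7 and the granulocyte-macrophage factor for STAT5A and STAT5B, and IL-4 and IL-13 for STAT6. Because a STAT is switched on by phosphorylation, the level of its transcript does not measure its activity. These libraries record neither the amount of STAT protein nor its phosphorylation.

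Library totals were between 9077195 and 13885509 counts, lowest in replicate 1, and genes of the mitochondrial genome took 17.8%, 6.22% and 13.1% of counts in replicates 1, 2 and 3. The libraries differed in the cell type genes they held. The 10 genes of the T cell list all lay above 50 CPM (normalised read counts scaled to a common library total) in edgeR's test, beside 19.9% of all genes tested. Tcf7 was the highest of them at 448 ± 97.3 CPM per kilobase of gene length (mean ± SD, n = 3, as in every such pair of values below). Erythroid genes were highest in replicate 1 (6 of 6 genes), macrophage genes in replicate 1 (8 of 8), B cell genes in replicate 1 (9 of 9), natural killer (NK) cell genes in replicate 2 (9 of 9) and neutrophil genes in replicate 3 (7 of 7). Of all 15490 genes tested, 7005 were highest in replicate 1, 4951 in replicate 2 and 3534 in replicate 3. The genes of the sort were read at 9.83, 5.35 and 5.92 CPM for Kit (c-kit), 19.1, 4.28 and 17.6 CPM for Ly6c1, 11.5, 121 and 41.2 CPM for Ly6c2 and 26.9, 43.2 and 24.0 CPM for Itgax (CD11c). In CPM, the transcript of the excluded marker thus stood above that of c-kit in every library. The sort acted on surface protein, which transcript levels do not measure. Of the 6 stem and progenitor genes tested, Kit among them, 5 lay below 50 CPM in edgeR's test, beside 66.7% of all genes, and Myb above. Cd34 was read at 1.06, 0 and 0.152 CPM. The T cell list was thus above the stem and progenitor list in these libraries, while in replicate 1 the erythroid genes Hbb-bs (1779 CPM) and Hba-a1 (1105 CPM) exceeded Tcf7 (793 CPM). In such a mixture, fewer cells of a type and less RNA per cell cannot be told apart.

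Stat4, the IL-12 responsive factor of T and NK cells, had the highest level of the family per length of gene. It was read at 44.2, 105 and 87.7 CPM per kilobase in replicates 1, 2 and 3 (78.8 ± 31.2), that is 132, 312 and 262 CPM. Replicate 1 stood far below the other 2 libraries, in which Stat4 was the first of the 6 genes by a clear margin. Stat6, which answers IL-4, followed with 42.2, 67.3 and 61.8 CPM per kilobase (57.1 ± 13.2). Stat3, the factor of the IL-6 and IL-10 families, was read at 42.6, 61.1 and 55.5 CPM per kilobase (53.1 ± 9.48). These 2 genes kept close to each other in every library, both low in replicate 1.

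Stat5b, of the STAT5 pair, was read at 35.5, 39.7 and 44.3 CPM per kilobase (39.8 ± 4.40) and was the most even of the 6 genes. Stat2, the interferon factor, was read at 14.2, 19.6 and 16.7 CPM per kilobase (16.9 ± 2.67). Stat5a was lowest with 10.6, 15.4 and 14.7 CPM per kilobase (13.6 ± 2.59). No value of Stat2 or Stat5a in any library reached the lowest value of the other 4 genes. Among the 15490 genes tested, the mean levels per kilobase stood at percentile 96.3 for Stat4, 94.1 for Stat6, 93.4 for Stat3, 90.2 for Stat5b, 73.6 for Stat2 and 68.8 for Stat5a. Summed over the 6 genes, the level was 189, 308 and 281 CPM per kilobase. Stat4 made up 23.3%, 34.0% and 31.3% of that sum and Stat5a 5.61%, 5.02% and 5.23%.

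**Figure D1:**
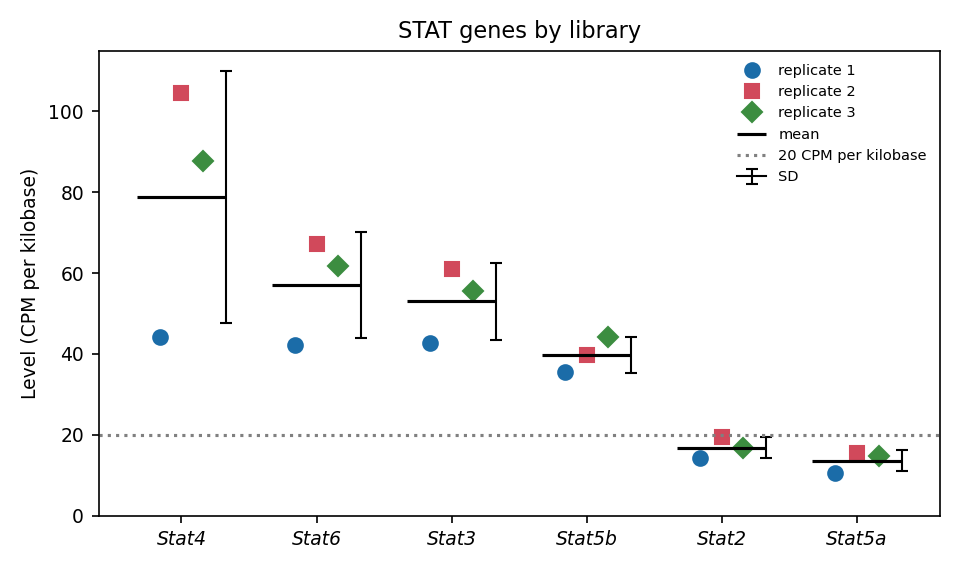
Level of the 6 STAT genes in CPM per kilobase of gene length; points are the 3 libraries, horizontal bars the means, error bars the SD and the dotted line 20 CPM per kilobase. Stat4 spans 44.2 to 105 between libraries, while Stat2 and Stat5a stay under the line in all 3.

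Each level was tested against 3 fixed levels, since the design holds no second group. Above 50 CPM lay 5 of the 6 STAT genes, where 19.9% of all genes tested were called above it. In edgeR's quasi-likelihood test the adjusted p was 3.16e-06 for Stat5b (217 ± 24.0 CPM), 3.19e-06 for Stat3 (238 ± 42.5), 7.37e-06 for Stat6 (217 ± 50.1), 2.67e-05 for Stat4 (235 ± 93.0) and 0.00822 for Stat2 (74.1 ± 11.7). Stat5a, at 41.3, 60.0 and 57.0 CPM, was not separated from 50 CPM (edgeR adjusted p = 0.651). Above 1 CPM lay 6 of 6, against 68.6% of all genes. CPM favours long genes, so the level of 20 CPM per kilobase gives the fairer reading between genes. There, 4 of 6 lay above, against 16.5% of all genes, with edgeR adjusted p = 9.88e-05 for Stat4 (3.94-fold above the level), 1.29e-04 for Stat6 (2.86-fold), 1.40e-04 for Stat3 (2.65-fold) and 5.41e-04 for Stat5b (1.99-fold). Stat2 was not separated from 20 CPM per kilobase (edgeR adjusted p = 0.170). Stat5a lay below it (log2 level -0.56 ± 0.17 SE, edgeR adjusted p = 0.0205), as 64.4% of all genes did, and this call was lost without replicate 3 (edgeR adjusted p = 0.101) and with mitochondrial genes left out (0.0761).

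**Figure D2:**
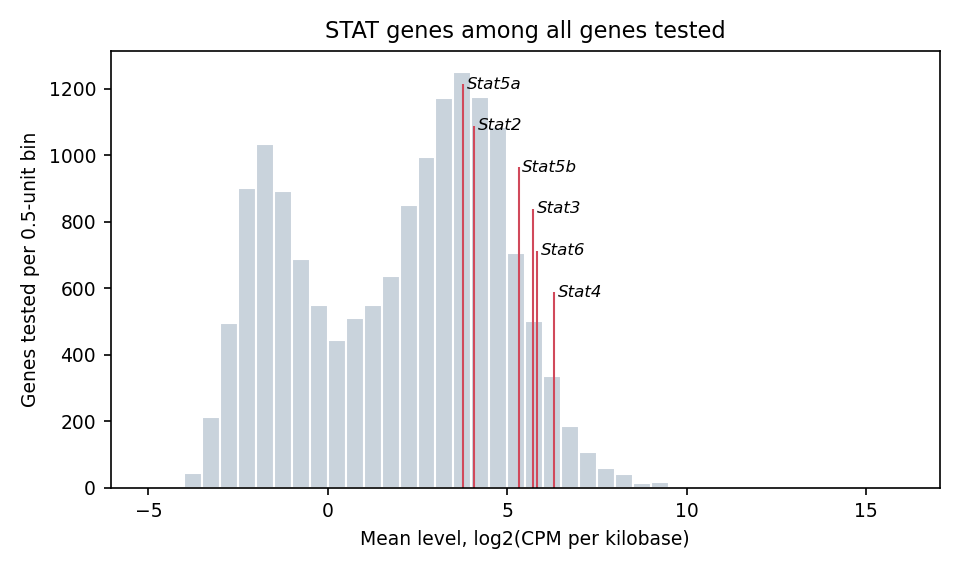
Number of genes tested (vertical axis) by mean level on the log2(CPM per kilobase) scale in bins of 0.5; vertical lines mark the means of the STAT genes and their heights carry no value. Stat5a and Stat2 sit on the main hump and the other 4 on its right flank.

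The order of the genes was compared within each library, as 15 pairs. The same gene was the higher one in all 3 libraries for 14 pairs. Each of these gave an exact sign-flip permutation p = 0.25, two-sided, the smallest that 3 libraries allow, and 0.268 after Benjamini-Hochberg adjustment over the pairs, so none can pass. Between neighbours in the order, Stat4 exceeded Stat6 by 0.07, 0.64 and 0.50 log2 units (0.40 ± 0.30), a gap that nearly closed in replicate 1. Stat6 and Stat3 differed by -0.01, 0.14 and 0.16 (0.09 ± 0.09, exact permutation p = 0.5) and changed places in replicate 1. Stat3 exceeded Stat5b by 0.40 ± 0.19 log2 units and Stat2 exceeded Stat5a by 0.32 ± 0.12. The widest step lay between Stat5b and Stat2, with 1.25 ± 0.20 log2 units or 2.37-fold. It separated 4 members with higher levels per kilobase from 2 lower ones.

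The lengths behind this order were those of the deposited table, 2981 bases for Stat4, 3805 for Stat6, 4487 for Stat3, 5442 for Stat5b, 4394 for Stat2 and 3888 for Stat5a. In CPM without length, Stat3 had the highest mean and Stat4 the second (a log2 difference of 0.09), but Stat3 was first in no library. Stat5b was highest in replicate 1 (193 CPM, beside 191 for Stat3 and 132 for Stat4). Stat4 was highest in replicates 2 and 3 (312 and 262 CPM, beside 274 and 249 for Stat3). With the union of all exons annotated in GENCODE M21, a length chosen after seeing the data, Stat3 has 9527 bases and fell below Stat5b by 0.66 log2 units, and its call above 20 CPM per kilobase was lost (edgeR adjusted p = 0.0929), which left 3 members above. On average, Stat4 stayed above Stat6, Stat3 and Stat5b per kilobase with each set of lengths tried.

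The STAT genes differed between libraries in 1 direction. All 6 STAT genes were lowest in replicate 1, and 5 of 6 were highest in replicate 2, the exception being Stat5b, highest in replicate 3. Of the 3083 genes above 50 CPM, 74.5% were lowest in replicate 1 and 54.6% highest in replicate 2, a direction that most well expressed genes shared. Both counts of STAT genes were the same with DESeq2 size factors, with library totals alone and with mitochondrial genes left out. The shares of genes above 50 CPM were not computed under these scalings. Stat4 varied most, by 2.37-fold between replicates 1 and 2, with a coefficient of variation of 39.6% over 1246 to 4373 counts, against 11.1% for Stat5b. Its SD on the log2 scale stood at percentile 97.1 among genes above 50 CPM, against 76.6 for Stat6, 61.4 for Stat5a, 55.9 for Stat3, 44.2 for Stat2 and 22.9 for Stat5b. NK cell genes moved the same way as Stat4: 9 of 9 were lowest in replicate 1 and highest in replicate 2, their summed level was 108, 821 and 339 CPM, and none was at 0. Gzma, a granule protease and the highest of that list per kilobase, was read at 19.0, 121 and 59.8 CPM. The part of NK cell RNA in the Stat4 values was not tested. Summed T cell genes were read at 3826, 4619 and 4735 CPM. Of these 10 genes, 5 were lowest in replicate 1 and 5 in replicate 2, and 4 were highest in replicate 2. The part of T cell RNA in the Stat4 values was not tested.

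**Figure D3:**
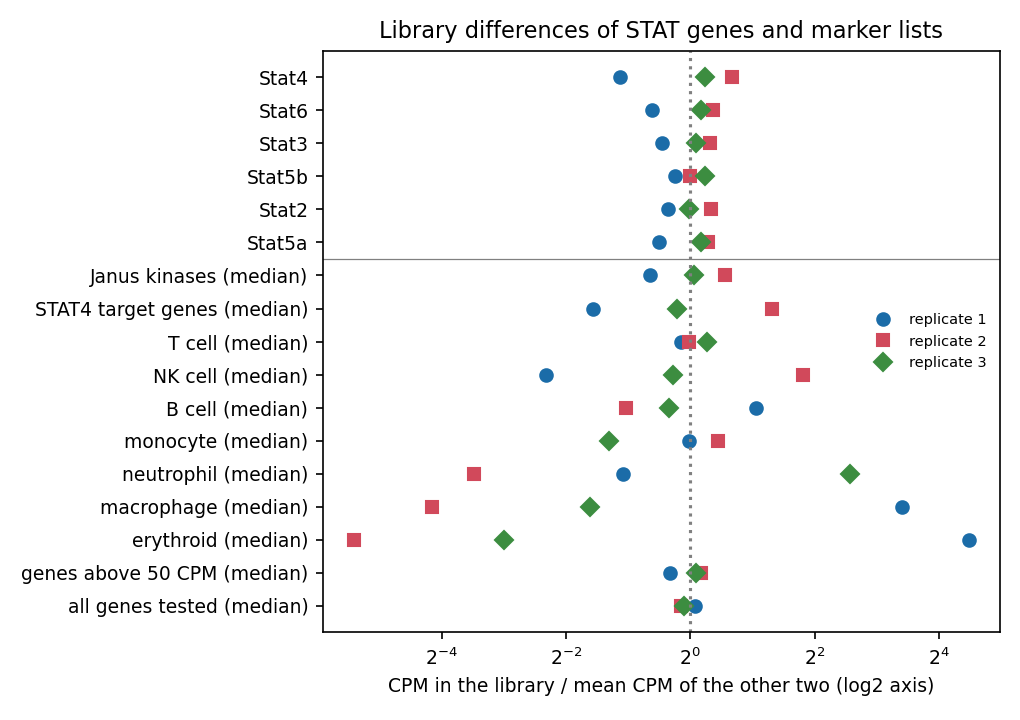
CPM in each library divided by the mean of the other 2 libraries (log2 axis) for the STAT genes and, as the median over list members, for pathway and cell type lists; the dotted line marks a ratio of 1. Stat4 runs from 0.459 in replicate 1 to 1.59 in replicate 2, in the direction of the STAT4 target and NK cell lists.

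In the genome the family lies in 3 places, given here for GRCm38.p6 (RefSeq), with exons and introns together. Stat4 spans chr1:51987106-52107189. Stat6 (chr10:127642955-127660987) and Stat2 (chr10:128270498-128292853) share chromosome 10. Stat5b (chr11:100780731-100859004), Stat5a (chr11:100859351-100885169) and Stat3 (chr11:100886806-100939594) are neighbours on chromosome 11. In GENCODE M21, the last exons of Stat5a and Stat3 overlap by 72 bases on opposite strands, and Stat6 overlaps Nab2 by 40 bases on opposite strands. The sources used here do not give the strand setting of the counting, so reads in those stretches may be shared, a small part of the lengths above. Stat4 also overlaps the noncoding gene Gm28177 on the same strand. Neighbours in the genome did not have like levels: Stat5b stood above Stat5a by 3.34, 2.57 and 3.02 times per kilobase (2.97 ± 0.387).

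Stat5a and Stat5b arose by duplication and are near copies. Their coding parts are 90.8% identical (2080 of 2291 aligned bases), whereas the other 14 pairs of members have 58.2% to 65.3% identity. Of all 50-base words in the coding part of Stat5a, 26.0% also occur in Stat5b, and 0% of the words of any other pair are shared. The longest identical run has 324 bases, at coding positions 571 to 894 in both genes. Its first and last 40 bases are shown with 20 bases on the outer side, read from GENCODE M21 transcripts, since a read that falls within it cannot be given to 1 gene; capitals mark the shared bases.
Stat5a, start of the shared run: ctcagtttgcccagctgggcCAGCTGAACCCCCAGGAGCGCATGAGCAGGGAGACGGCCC
Stat5b, start of the shared run: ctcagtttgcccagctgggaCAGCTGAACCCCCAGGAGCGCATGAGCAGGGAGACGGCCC
Stat5a, end of the shared run: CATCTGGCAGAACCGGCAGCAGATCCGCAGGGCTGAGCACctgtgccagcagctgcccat
Stat5b, end of the shared run: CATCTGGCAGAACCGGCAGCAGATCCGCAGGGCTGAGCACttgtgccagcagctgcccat

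Over the whole transcripts, UTRs included, shared words were 17.1% in Stat5a and 11.8% in Stat5b. The sources used here do not say how reads with several matches were counted, so the split between Stat5a and Stat5b is uncertain, while the order of the other 4 members does not rest on it.

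The Janus kinases, which stand between receptor and STAT, were all present. Jak1, shared by most cytokine receptors, was read at 184, 320 and 257 CPM per kilobase (254 ± 68.0), above every STAT gene in every library. Jak2 was read at 49.4 ± 4.92, Jak3, the partner of the common gamma chain, at 29.2 ± 8.75 and Tyk2, which serves the interferon and IL-12 receptors, at 19.2 ± 5.86 CPM per kilobase. Above 50 CPM lay 4 of 4, beside 19.9% of all genes (edgeR adjusted p from 6.06e-08 for Jak1 to 0.00205 for Tyk2). Above 20 CPM per kilobase lay 3 of 4, beside 16.5% of all genes, Jak3 only with both replicates 2 and 3 in the fit (edgeR adjusted p = 0.0252, and 0.129 and 0.0986 without them). All 4 were lowest in replicate 1, as were the STAT genes and 74.5% of all genes above 50 CPM.

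The SOCS genes, feedback inhibitors that STATs induce, had shares above and below 50 CPM near those of all genes. Above 1 CPM lay 8 of 8, beside 68.6% of all genes. Socs3, which blocks the IL-6 receptor chain, was read at 84.2, 84.7 and 101 CPM and was the 1 of 8 above 50 CPM (edgeR adjusted p = 7.76e-04), where 19.9% of all genes were. Cish (12.7 ± 3.95 CPM), Socs1 (19.1 ± 2.20), Socs2 (3.87 ± 2.14), Socs5 (33.7 ± 4.34) and Socs6 (14.2 ± 2.11) lay below it, 5 of 8 beside 66.7% of all genes. Socs5 was not below without replicate 3 (edgeR adjusted p = 0.179) or with mitochondrial genes left out (0.0606). Socs4 (48.4 ± 4.22) and Socs7 (42.3 ± 9.79) were not separated from 50 CPM. The median SOCS gene stood at 6.85 CPM per kilobase, beside 5.50 for all genes tested. Among 8 PIAS proteins and phosphatases that restrain STATs, 5 lay above 50 CPM, beside 19.9% of all genes. The phosphatase genes Ptpn6 (SHP-1, 140 ± 18.9 CPM per kilobase) and Ptpn1 (47.3 ± 7.82) were highest, and Pias2 (10.8 ± 2.40) and Pias3 (4.76 ± 1.45) lowest.

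For STAT2, the chains of the type I interferon receptor were read at 143, 188 and 181 CPM (Ifnar1) and 79.8, 123 and 83.9 CPM (Ifnar2). Irf9, the DNA-binding partner of STAT2, was read at 127, 118 and 149 CPM. These 3 of the 4 listed genes lay above 50 CPM, beside 19.9% of all genes (edgeR adjusted p from 1.26e-05 to 0.00106). The other, Ifnlr1, the receptor chain for lambda interferon, was read at 1.90, 0 and 0.987 CPM. Of 10 interferon-induced genes, Stat2 itself among them, 3 lay above 50 CPM, beside 19.9% of all genes: Stat2, Irf7 (67.4 ± 13.7 CPM) and Ifit2 (103 ± 14.3), the last named after its values were seen. Irf7 lost its call without replicate 2 (edgeR adjusted p = 0.176) or without replicate 3 (0.128). Rsad2, the antiviral enzyme viperin, was read at 256, 10.3 and 30.6 CPM, high in replicate 1 alone. Ifit3 (17.7 ± 3.58 CPM) and Oasl2 (26.5 ± 2.41) lay below 50 CPM, as 66.7% of all genes did.

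The complex of STAT2 and IRF9 binds the interferon-stimulated response element (ISRE). Its core was searched as GAAANNGAAA on both strands (TTTCNNTTTC on the other) in RefSeq promoter windows of GRCm38.p6, from 250 bases before to 50 bases after each gene's start. Of 32851 windows 3.44% held it, and of 27025 genes 3.99%. Of the 6 STAT genes, Stat2 and an alternative start of Stat4 held it, and of the 9 interferon-induced genes with a window 6 did. The match of Stat2 at chr10:128270266-128270295 (plus strand) is shown beside those of Ifit1 (chr19:34640775-34640804, plus strand) and Ifit3 (chr19:34583363-34583392, plus strand) because all 3 carry the core in the same orientation; capitals mark the core.
Stat2: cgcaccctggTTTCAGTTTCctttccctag
Ifit1: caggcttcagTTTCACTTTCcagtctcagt
Ifit3: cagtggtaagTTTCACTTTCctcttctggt

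The core of Stat2 begins 222 bases before its start and those shown for Ifit1 and Ifit3 104 and 156 bases before theirs. Ifit1 and Ifit3 each hold another core nearer to the start, at 85 and 122 bases before it. A match is no measure of binding. The mean levels of these 3 genes were 74.1 CPM for Stat2, 34.9 for Ifit1 and 17.7 for Ifit3.

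For STAT3, 6 of 10 receptor genes lay above 50 CPM, beside 19.9% of all genes, led by Il6st, the gp130 chain shared by the IL-6 family (56.4, 79.1 and 66.1 CPM per kilobase), and Il21r (50.6, 70.7 and 63.9). Lepr (0.309 ± 0.316 CPM per kilobase) and Osmr (0.176 ± 0.226) were lowest. Csf3r, the neutrophil growth factor receptor, lost its call without replicate 3 (edgeR adjusted p = 0.791), with robust empirical Bayes (0.184) and with edgeR's expression filter. It is itself 1 of the 7 genes of the neutrophil list, all highest in replicate 3. Among STAT3 target genes 5 of 9 lay above 50 CPM, beside the same 19.9%, Stat3 itself included. They were led by the survival gene Mcl1 (695 ± 149 CPM) and Junb (169 ± 53.8), with Pim1 and Socs3 as the others, while Bcl3 (24.3 ± 2.69) lay below.

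For STAT4, the IL-12 receptor gene Il12rb1 was read at 13.9, 16.5 and 11.8 CPM and Il12rb2 at 11.9, 28.7 and 12.7 CPM, and Il23r, which pairs with Il12rb1, at 1.16, 0.642 and 1.06 CPM. All 3 lay below 50 CPM (edgeR adjusted p from 4.82e-04 to 0.0125), Il23r not without replicate 3 (0.182), and so did 66.7% of all genes. Per kilobase Stat4 thus exceeded both IL-12 receptor chains in each library. Il12rb1 and Il12rb2 had their highest values in replicate 2, as did Stat4 and 32.0% of all genes tested, and Il23r did not. Among 5 STAT4 target genes, Il18r1, a chain of the IL-18 receptor, alone lay above 50 CPM, with 90.5, 347 and 190 CPM (edgeR adjusted p = 2.97e-04), a share like the 19.9% of all genes. Its partner Il18rap was read at 25.7, 132 and 53.6 CPM, Tbx21 (T-bet, named after its values were seen) at 19.7, 93.3 and 30.1 CPM and Furin at 49.6, 70.0 and 62.6 CPM. These 4 genes, like Stat4, were lowest in replicate 1 and highest in replicate 2, and Hlx (3.53 ± 1.70 CPM) was not. Of all genes tested, 35.2% were lowest in replicate 1 and 32.0% highest in replicate 2. Of the genes above 50 CPM, 74.5% and 54.6% were. Without replicate 1, Il18rap also lay above 50 CPM (edgeR adjusted p = 0.0141). The NK cell genes given above moved in the same direction, and their part in these values was not tested.

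For STAT5, 3 receptor genes were highest. Il2rg, the common gamma chain, was read at 200.3, 203 and 192 CPM per kilobase, and Il7r, the IL-7 receptor of T cells, at 138, 222 and 221. Il2rb followed with 46.3, 167 and 72.4 CPM per kilobase, highest in replicate 2. These were the 3 of 16 above 50 CPM (19.9% of all genes), and 11 lay below (66.7% of all genes), shares near those of all genes. Among the 11 were Prlr (0.214 ± 0.115 CPM per kilobase) and Ghr (0.187 ± 0.252), the prolactin and growth hormone receptors. Ghr was not called below without replicate 3 (edgeR adjusted p = 0.149). Without replicate 1 or with edgeR's expression filter, it had too few counts to test. Epor, the red cell factor receptor, was read at 7.08, 0 and 1.14 CPM, and it is itself 1 of the 6 genes of the erythroid list, whose summed levels were 3682, 50.1 and 258 CPM. Of 10 STAT5 target genes, 4 lay above 50 CPM, beside 19.9% of all genes: the cyclins Ccnd2 (565 ± 108 CPM) and Ccnd3 (123 ± 20.2), the kinase Pim1 (90.0 ± 6.07) and Bcl2 (319 ± 148), which blocks cell death. Osm (9.89 ± 2.13 CPM) and the feedback genes Cish and Socs2 lay below 50 CPM.

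STAT5 binds the gamma-activated site (GAS), searched here as TTCNNNGAA, which reads the same on both strands. It stood in 9.55% of genes with a window, in 0 of the 6 STAT genes and in 2 of 7 STAT5 target genes. Cish, the classical STAT5 target, held 2 copies that do not overlap, shown with 10 bases on each side; Foxp3 was the other STAT5 target gene with a match. The match of Socs3, a STAT3 target gene, is shown beside them because both genes belong to the SOCS family; capitals mark the motif. The windows lie at chr9:107296649-107296677 and chr9:107296660-107296688 (plus strand) and chr11:117969502-117969530 (minus strand).
Cish, first copy: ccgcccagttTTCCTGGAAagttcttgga
Cish, second copy: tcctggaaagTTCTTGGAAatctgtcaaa
Socs3: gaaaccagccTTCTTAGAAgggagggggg

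Cish was read at 17.0, 9.27 and 11.8 CPM, and its mean stood at percentile 50.4 of the genes tested. Stat5b and Stat5a averaged 217 ± 24.0 and 52.8 ± 10.1 CPM in the same libraries. No match in a window says only that these letters are not there.

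For STAT6, Il4ra, the IL-4 receptor chain, was read at 45.1, 65.9 and 50.8 CPM per kilobase, beside 42.2, 67.3 and 61.8 for Stat6. With Il2rg it made 2 of 3 receptor genes above 50 CPM, beside 19.9% of all genes (edgeR adjusted p = 1.98e-06 for Il4ra). Il13ra1, the second chain of the IL-13 receptor, lay below with 14.9, 12.1 and 14.1 CPM. Of the 10 STAT6 target genes 8 could be tested and 2 lay above 50 CPM (19.9% of all genes did), Il4ra and Gata3 (65.5, 69.6 and 70.5 CPM), the latter lost without replicate 3 (edgeR adjusted p = 0.112). Xbp1 was even between libraries with 56.7, 57.1 and 58.6 CPM. It was not separated from 50 CPM (edgeR adjusted p = 0.188), but lay above with mitochondrial genes left out (edgeR adjusted p = 0.0268). The chemokine genes Ccl17, read at 0.740, 0 and 0 CPM, and Ccl22, at 0.634, 0 and 0.076 CPM, had too few counts to test. A count of 0 allows up to 3 counts, or 0.317, 0.214 and 0.228 CPM in replicates 1, 2 and 3, for counting error only. The STAT6 form of the site, TTCNNNNGAA, stood in 8.01% of genes, in 3 of 9 STAT6 target genes with a window and, among the STAT genes, in Stat2.

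**Figure D4:**
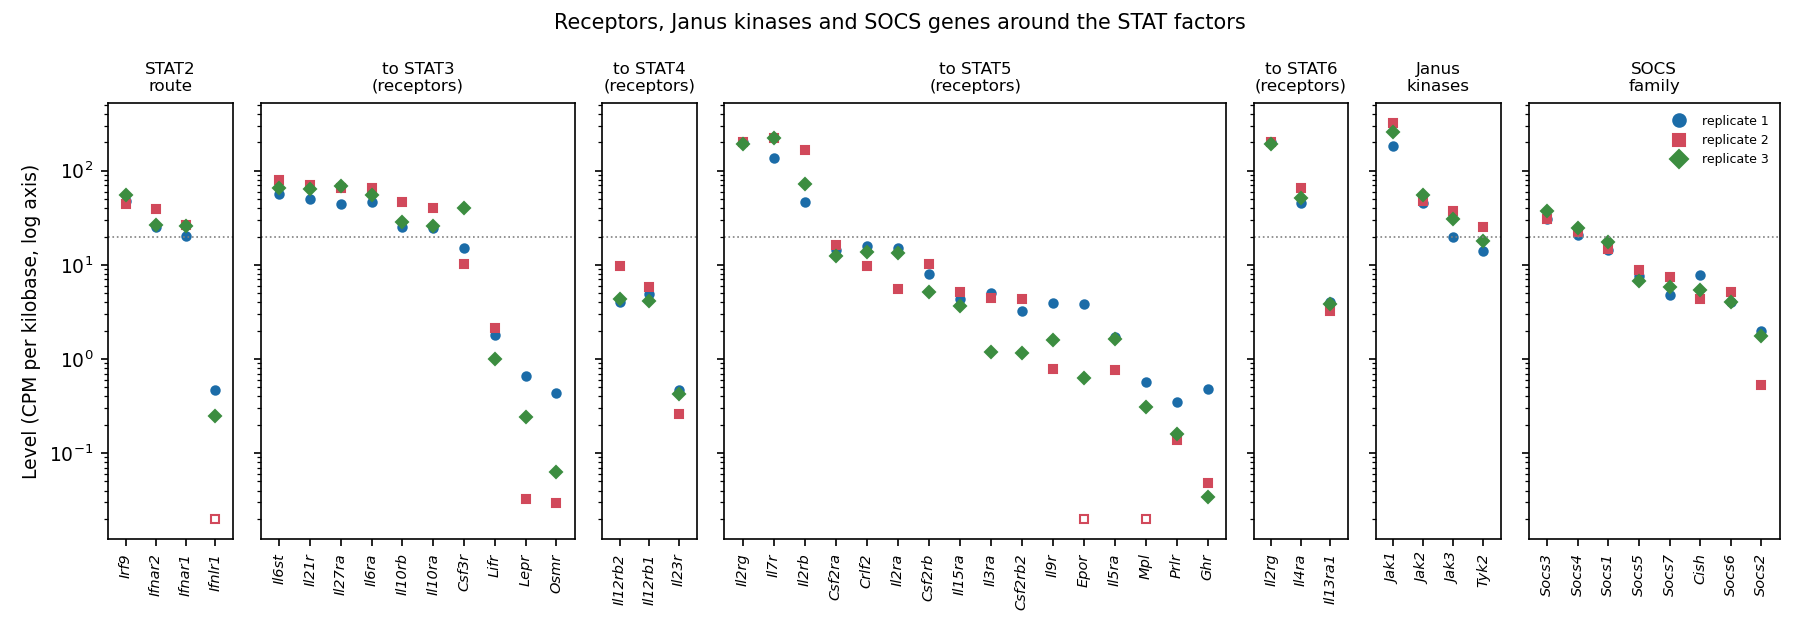
Level in CPM per kilobase (log axis) of receptor, Janus kinase and SOCS genes in the 3 libraries, grouped by the STAT they serve; open symbols at the lower edge are values of 0 and the dotted line marks 20 CPM per kilobase. Chains of the IL-6, IL-7 and IL-4 receptors lie above the line, and all 3 STAT4 receptor genes lie below it.

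For each STAT gene the closest patterns were sought over the 3 libraries, as the root mean square difference of log2 CPM per kilobase, among 13495 genes. Stat4 had the fewest near relatives: Gramd3 differed by 0.0924 and was the only gene within 0.1. For Stat2, 69 genes lay within 0.1, with Napg (0.00609) and Gga1 (0.0281) closest. Stat5a had 44, led by Fbxl6 and Tmem245, Stat3 38, led by Ddx27 and Baz2a, Stat5b 37, led by Rab2a and Aqr, and Stat6 21, led by Luc7l2 and Irf2. With 3 libraries such a likeness describes levels and depth as much as pattern.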

How the data were processed

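Total RNA (8 ng) of the sorted cells was made into libraries with a stranded pico-input kit, per the labels. The authors deposited whole-number read counts per gene with gene lengths in bases. Tools named, per the submitters' processing notes, are STAR 2.75, featureCounts, bcl2fastq and DESeq2 1.18.1, and the build is mm10. Annotation release, strand setting and treatment of multiply mapped reads are not given in the sources used here. Of the gene symbols 25 had become dates and were restored.

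CPM used TMM factors of 1.04, 1.01 and 0.950 in edgeR 4.0.16 (R 4.3.3). The 15490 genes whose counts summed to 10 or more were tested by edgeR's quasi-likelihood F test with an intercept alone, two-sided, against 50 CPM, 1 CPM and 20 CPM per kilobase, with Benjamini-Hochberg adjustment over all of them and a threshold of 0.05. The lone-intercept F test was written out from edgeR's fit and checked on simulated data. Log2 SDs had 0.5 counts added. Member pairs were compared by exact sign-flip permutation. In a check for duplicates no pair of libraries agreed within sampling noise (chi-square 38.0 to 103 per degree of freedom).

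Alternatives were DESeq2 size factors, library totals alone, mitochondrial genes left out, other filters, robust empirical Bayes, DESeq2 1.42.0 (50 and 1 CPM) and each replicate left out. Named genes are all STAT, Janus kinase, SOCS and sort genes, all members of lists of up to 4, the 2 highest and 2 lowest per kilobase of longer pathway lists, the highest of a cell type list, and the 2 nearest patterns. Genes that hold a call of a short count were added after their values were seen. Members and lists were chosen with earlier results of these data known. A further family member and some genes the rule would name are not reported here.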

Additional observations from a re-analysis of the deposited data

How the results depend on the processing

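The counts of STAT genes above 50 CPM (5), 1 CPM (6) and 20 CPM per kilobase (4) held under every alternative run, apart from 3 per kilobase with exon-union lengths. Under those lengths, chosen after seeing the data, Stat3 minus Stat5b turned to -0.66 log2 units, Stat3 lay 0.32 above 20 CPM per kilobase (edgeR adjusted p = 0.0929) and Stat2 0.68 below (log2 level -0.68, edgeR adjusted p = 0.00738). In CPM without length, Stat3 minus Stat4 (0.093), Stat3 minus Stat6 (0.14) and Stat5b minus Stat6 (0.018) turned sign, and 10 of 15 pairs kept 1 order. With Stat5a and Stat5b summed, 6 of 10 pairs did. The log2 level of Stat5a against 50 CPM ranged from -0.030 (without replicate 2, edgeR adjusted p = 0.887) to 0.20 (without replicate 1) with a replicate left out, against 0.08. With mitochondrial genes left out, Stat5b averaged 248 CPM and 2 STAT4 target genes lay above 50 CPM. Genes below 50 CPM numbered 6202 with edgeR's expression filter and 5479 to 10579 with a replicate left out, against 10329, and genes below 20 CPM per kilobase 6439 and 5381 to 10122, against 9974, the low ends without replicate 3. No paired analysis was possible because the labels give 1 group. Below 1 CPM, edgeR called 0 genes (0 at an unadjusted p under 0.05), as did DESeq2, so levels of genes near 0 were not resolved at this depth and filter.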
